A study of Gallus gallus with 18 samples.

Results

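Liver gene expression in chickens after 3 h of heat was compared with that of unheated controls, using the 3 arrays labelled liver at T3 and the 3 labelled liver at T0, which are 6 of the 18 arrays of the series. The comparison covers every probe set of the array except the manufacturer's control probe sets, 38439 in all. Of these, the 19220 whose mean was at or above the median probe set of the liver arrays were tested, and they represent 9555 genes by 1 probe set per gene.

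RNA of cerebral cortex, liver and leg muscle was hybridised to Affymetrix chicken arrays, 3 for each tissue and condition. Control birds were sampled after housing at 28 ± 1 °C, and heated birds after 3 h at 40 ± 1 °C. Both groups had been housed for 8 days with free access to food and water. The labels give 24 birds, 12 male and 12 female, and name no breed. The bird and sex behind each array are not given, nor is it said whether several birds were pooled on one array, so the p-values measure the spread between these arrays. Controls carry the time label T0 and heated birds T3. An effect of the later sampling time, or of any difference in feeding over those 3 h, cannot be told apart from an effect of heat.

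The liver is the main site of lipid synthesis in birds, and it also makes glucose, plasma proteins and bile acids. Heat shock proteins are chaperones that keep other proteins folded, and their genes are switched on by heat shock factors when proteins unfold. Cholesterol synthesis genes are driven by the transcription factor SREBP2, whereas genes of fatty acid oxidation and glucose production are driven in fasting by PPARGC1A together with nuclear receptors.

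Probe set values are given as normalized intensities, a relative brightness with no absolute scale, in the order of replicates 1, 2 and 3. Changes are log2 differences of heat minus control after adding 16 to each intensity, with their standard error (SE) and the limma p adjusted by Benjamini-Hochberg over the 19220 probe sets. A gene was called when that p was below 0.05. The 6 bacterial trp control probe sets, which match no chicken RNA, read up to 97.6 on these arrays, so values near or below 100 lie close to background. Hepatocyte markers other than CPS1 were abundant in both groups. On the deposited scaling CPS1 read 95.7, 91.9 and 106.7 in the controls and 158.6, 108.2 and 85.3 after heat, near background. ALB, the albumin gene, stood at or near the top of the normalized scale, where no change could be read, at 25850.4, 23455 and 25850.4 in the controls and 25850.4, 25850.4 and 25850.4 after heat, and 1 of the 16 measured hepatocyte markers was called (TAT, higher).

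The expression of 1388 genes changed, which is 14.5% of those tested. Of these, 676 genes (7.07%) were higher and 712 genes (7.45%) were lower after heat. At probe set level 1334 (6.94%) were higher and 1177 (6.12%) lower, 13.1% together. Of the calls, 41 of the 676 higher and 15 of the 712 lower genes had 1 group mean below the intensity limit for testing, among them PCK1, CPT1A, SNAP25 and ALDH1A2. Changes of at least 2-fold were seen for 91 genes that rose and 95 that fell, and changes of at least 4-fold for 8 in each direction. The groups did not overlap for 3820 genes, 40.0% of those tested, so a lack of overlap alone was common here. Of the 2511 called probe sets, 2509 had groups that did not overlap, so separation adds little to a call. The genes named below as the largest rises and falls were chosen among genes without overlap. For them a lack of overlap describes the values and is not read as a further result. The median change over all tested genes was -0.04.

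**Figure D1:**
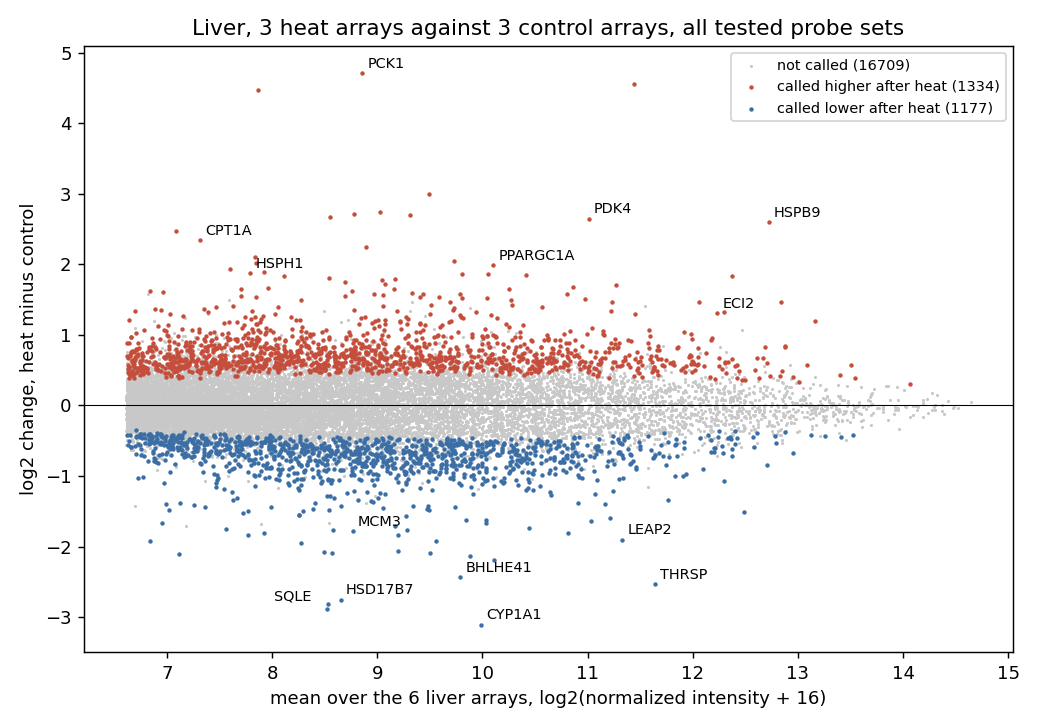
Log2 change (heat minus control, vertical axis) against mean log2 intensity over the 6 liver arrays (horizontal axis) for every tested probe set. Grey points were not called (16709), and coloured points were called higher (1334) or lower (1177). Calls in both directions extend over the whole range of intensity.

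The number of calls depended on single arrays. Without control 2, control 3, heat 1 or heat 3 the calls over probe sets were 610, 499, 542 and 1079, against 2383 without control 1 and 2259 without heat 2. The balance of directions differed with scaling: 53.1% of calls were higher after quantile normalization and 69.4% were higher on the scaling as deposited (1894 higher, 837 lower). Of the 763 other probe sets for called genes, 685 had the same sign, 288 were called in the same direction and 1 was called in the opposite direction. Liver arrays correlated at 0.984 to 0.992 within a group and at 0.966 to 0.981 between groups. The 3' to 5' ratio of actin, a sign of RNA integrity, was 1.42, 1.64 and 2.21 in the controls and 2.77, 2.17 and 1.52 after heat, so the groups overlapped.

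Transcripts of chromosome W, which only female birds carry, differed between the liver arrays. Their mean log2 level over 9 probe sets was 7.41, 7.33 and 7.73 in the controls and 7.57, 8.05 and 8.60 after heat. Heat 2 and heat 3 lay above every control. None of the 11 tested genes of chromosome W was called, against 14.5% of all genes. A fit with this level as a covariate, chosen after the values were seen, called 54 probe sets, 27 in each direction, and 4633 probe sets had an unadjusted p under 0.05 in it. For the 164 called genes chosen by the naming rule, the fitted change in that fit was 0.347 to 1.42 times the change reported here (median 1.04), none changed direction, and 20 were still called. The median SE of those genes rose from 0.146 to 0.197.

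Cytosolic heat shock chaperones were higher as a group. Of 23 tested genes, 10 rose and 1 fell, and their median change was 0.43 against -0.04 over all genes. The share called was 47.8%, against 14.5% of all genes. HSPB9, a small heat shock protein, had 3135, 2868 and 2249.6 in the controls and 17308, 15664 and 16703 after heat. Every heat value lay far above every control value, a rise of 6.04-fold (log2 change 2.60, SE 0.13, adjusted p = 9.63e-05). A second HSPB9 probe set read 649.6, 557 and 481 in the controls and 12068, 14844 and 13771 after heat (log2 change 4.56, adjusted p = 4.03e-06), so the size of the rise depended on the probe set.

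BAG3, a co-chaperone of HSP70 that directs damaged proteins to autophagy, read 715, 451 and 344 in the controls and 1404, 1433 and 1234 after heat. HSPH1, the HSP110 nucleotide exchange factor, read 145, 107 and 63.1 in the controls and 627, 337 and 322 after heat. All heat values of both genes were above all control values, with control 1 the highest of the controls and heat 1 the highest or close to the highest after heat. BAG3 changed by 1.46 (SE 0.24, adjusted p = 0.0117) and HSPH1 by 1.87 (SE 0.31, adjusted p = 0.0118). HSPA2, an HSP70 family member with 3727, 2301 and 2881 in the controls and 6429, 5366 and 5104 after heat, rose by 0.94 (adjusted p = 0.0166). Some abundant chaperones did not pass the test: HSP90AA1 had a change of 0.14 (adjusted p = 0.561) and the constitutive HSPA8 one of -0.36 (adjusted p = 0.178). HSP90AB1, the other cytosolic HSP90, was the member that fell (-0.68, adjusted p = 0.0219). The heat shock factors HSF2, HSF3 and HSF4 were tested and not called, with changes of -0.07, 0.43 and -0.14. With 1 array left out at a time, the calls of HSPB9, BAG3 and HSPH1 held throughout, and calls were lost for HSPA2 without control 3 or heat 1 (adjusted p up to 0.0634) and HSP90AB1 without control 2, control 3 or heat 3 (adjusted p up to 0.0849). The count of chaperones that rose was 4, 3 and 4 without control 2, control 3 or heat 1.

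Chaperones of other compartments were mixed. In mitochondria, HSPD1 (HSP60) rose from a mean of 4211 ± 227 (SD, n = 3) to 6634 ± 466 (log2 change 0.65, adjusted p = 0.0107), and CLPX, the ATPase of the ClpXP protease, changed by 0.65. TRAP1, the mitochondrial HSP90, fell by 0.60 on the log2 scale, and the protease LONP1 fell by 0.61. With 2 genes higher and 2 lower of 11, the list had no common direction (36.4% called, median -0.03). In the endoplasmic reticulum, DNAJC3 was the 1 gene of 25 that was called (a mean of 956 ± 25.8 (SD, n = 3) against 1437 ± 68.3, log2 change 0.58, adjusted p = 0.0203). That is 4% of this list, against 14.5% of all genes. HSPA5 (BiP), the main chaperone there, read 9128, 7175 and 5547 in the controls and 6369, 6425 and 10829 after heat, with overlapping groups. Of the 8 subunits of the CCT chaperonin, which folds actin and tubulin, CCT7 (-0.54) and CCT3 (-0.47) fell (25% called), and the median was -0.27. On the scaling as deposited, with array medians set equal or with no filter none of the 8 was called, and the deposited scaling gave a median of -0.11. Leaving out each array in turn, calls were lost for HSPD1 without control 3 (adjusted p up to 0.0516), CLPX and LONP1 without control 2, control 3 or heat 1 (adjusted p up to 0.0757 and 0.0756), TRAP1 and DNAJC3 without control 2, control 3, heat 1 or heat 3 (adjusted p up to 0.0698 and 0.0840) and CCT7 and CCT3 whichever array was left out (adjusted p up to 0.0994 and 0.137).

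**Figure D2:**
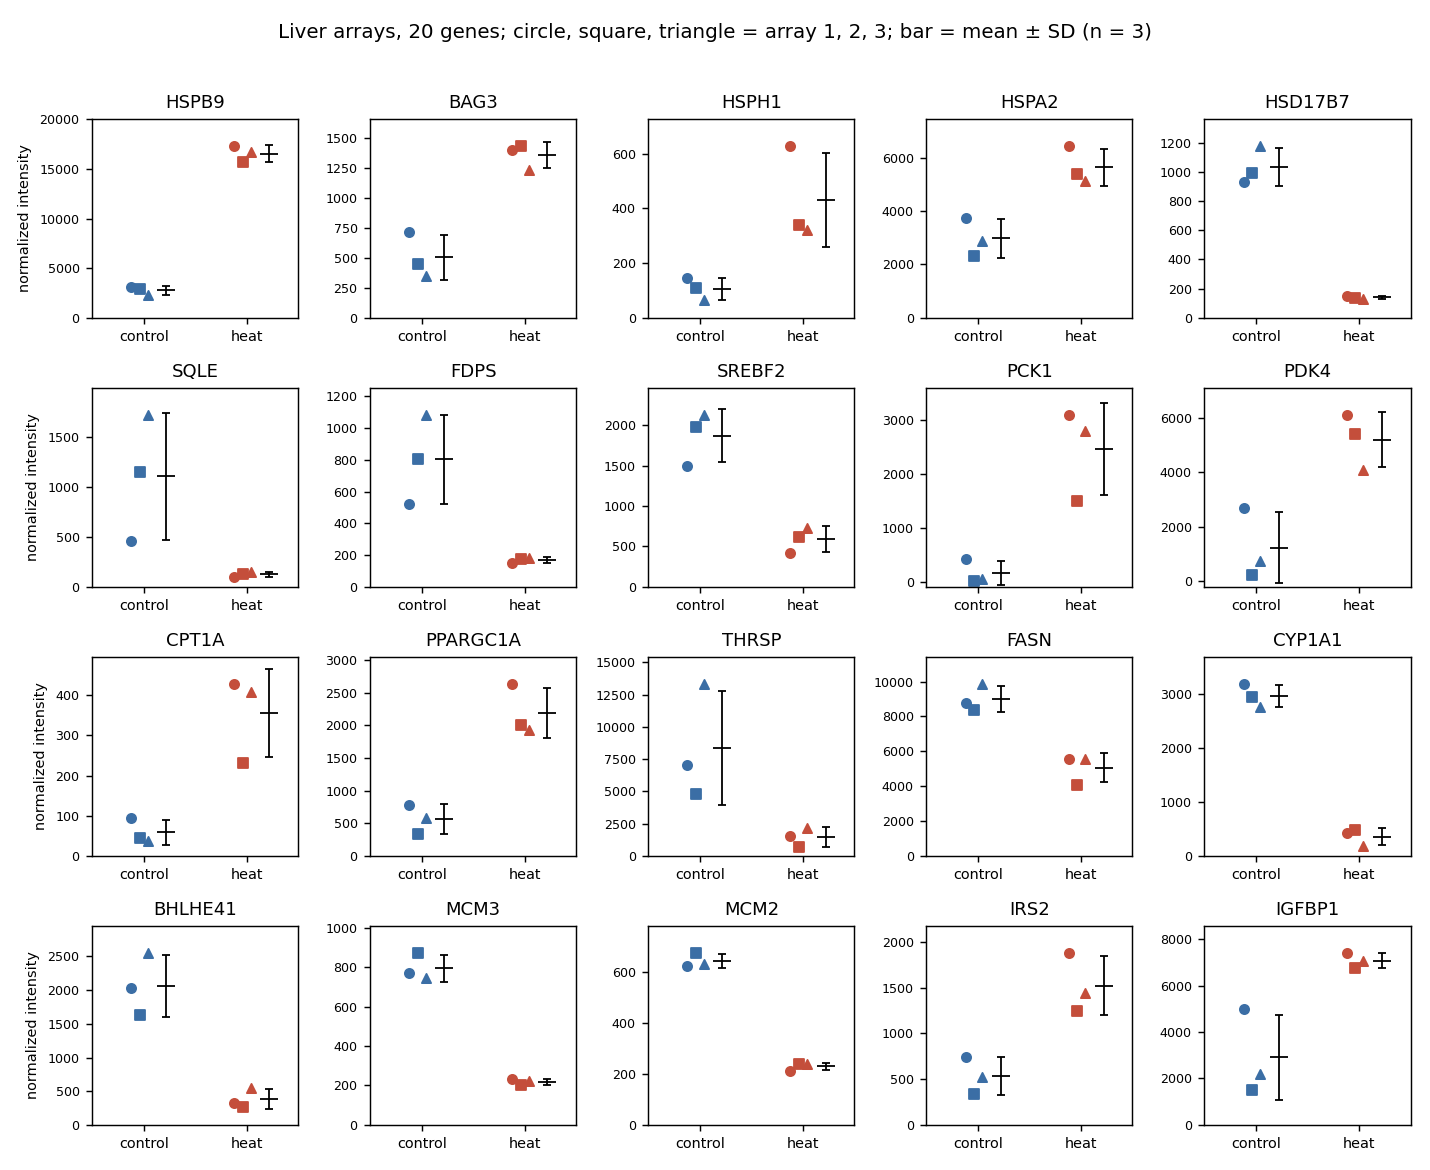
Normalized intensity on a linear axis for 20 genes, with 1 point per liver array (3 control, 3 heat) and the mean ± SD of each group. HSPB9 is far higher on all 3 heat arrays (log2 change 2.60), and HSD17B7 is far lower on all 3 (-2.75).

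Genes of cholesterol synthesis were lower as a group: 13 of 17 tested genes fell, none rose and the median change was -0.98. Among the 43 lists this was the lowest median and the largest share of genes that fell. Calls made up 76.5% of the list, against 14.5% of all genes. HSD17B7, which reduces a sterol ketone late in the pathway, had 929.7, 995 and 1179.8 in the controls and 151, 136 and 131 after heat. The groups were far apart and each was narrow (log2 change -2.75, SE 0.14, adjusted p = 9.63e-05). SQLE, which oxidises squalene and is a rate-controlling step, had 454, 1145 and 1719 in the controls and 98.7, 129 and 146 after heat. Its controls spread widely, with control 1 lowest and control 3 highest, yet all lay above the heat values (log2 change -2.82, SE 0.41, adjusted p = 0.00786).

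The same ordering of the controls, 1 below 2 below 3, was present in NSDHL, LSS, FDPS, FDFT1, DHCR7 and SREBF2. NSDHL, a sterol dehydrogenase, read 1079, 1445 and 2075 in the controls and 307, 357 and 343 after heat and changed by -2.09 (SE 0.22, adjusted p = 0.00390). LSS, lanosterol synthase, read 833, 1204 and 1664 in the controls and 241, 308 and 269 after heat and changed by -2.06 (SE 0.23, adjusted p = 0.00440). Other tested probe sets of LSS changed by -1.44 (called lower) and -0.02 (not called). FDPS and FDFT1, which make farnesyl diphosphate and squalene, fell by 2.10 and 1.77 on the log2 scale. In none of these genes did the groups overlap, which their choice among the largest falls required. DHCR7, the last enzyme of one branch, fell by 1.71. SREBF2, which encodes the SREBP2 factor itself, had 1499, 1983 and 2124 in the controls and 417, 617 and 730.2 after heat, a change of -1.66 (SE 0.22, adjusted p = 0.00623). IDI2, an isopentenyl diphosphate isomerase that is not in the list and was among the 20 largest falls, changed by -1.62 (a mean of 1653 ± 557 (SD, n = 3) against 510.5 ± 39.8). HMGCS1 (0.40, adjusted p = 0.0804), INSIG1 (0.45, adjusted p = 0.116) and ACAT2 (0.20, adjusted p = 0.218) did not pass the test. In these 3 genes every heat value lay above every control, whereas in the other 14 of the 17 every heat value lay below. When each array was dropped in turn, the calls of HSD17B7, SQLE, NSDHL, LSS, FDPS, FDFT1, DHCR7, SREBF2 and IDI2 held throughout. The falls in the list numbered 9, 8 and 8 without control 2, control 3 or heat 1.

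Fatty acid synthesis and storage genes were lower too, with 8 of 20 fallen, 1 risen and a median of -0.64. Calls made up 45% of the list, against 14.5% of all genes. THRSP (Spot 14), a thyroid hormone-responsive protein of lipogenic tissue, had 7050.4, 4766 and 13289.8 in the controls and 1509, 684 and 2161 after heat. The groups did not overlap, although replicate 3 was the highest and replicate 2 the lowest in both (log2 change -2.53, SE 0.45, adjusted p = 0.0138). SCD, the desaturase that makes oleate, had 378, 236 and 451 in the controls and 86.4, 112 and 132 after heat, and its heat values came close to background (-1.52, adjusted p = 0.00990). FASN, fatty acid synthase, remained abundant at 8769, 8359.5 and 9840.2 in the controls and 5528, 4086 and 5578 after heat and fell by 0.84 on the log2 scale (adjusted p = 0.0121). AGPAT2, an acyltransferase of glycerolipid synthesis, fell by 0.92. The riser was ACSL1, which activates long-chain fatty acids for several uses (721, 471 and 497 in the controls and 1981, 1270.2 and 1004 after heat, log2 change 1.28, adjusted p = 0.0193). ACACA, SREBF1 and ACLY had changes of -0.68, -0.43 and -0.34 and adjusted p of 0.161, 0.0514 and 0.0531. In the 6 leave-one-out fits, the calls of SCD and AGPAT2 held throughout, and calls were lost for THRSP without heat 1 (adjusted p up to 0.0522), FASN without control 3 (adjusted p up to 0.0514) and ACSL1 without control 2, control 3 or heat 1 (adjusted p up to 0.0698). Falls in this list numbered 4, 3 and 3 without control 2, control 3 or heat 1.

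Fatty acid oxidation genes had a median change of 0.25, with 5 of 17 risen and 1 fallen (ECI1, an enoyl-CoA isomerase, -0.70). The share called was 35.3%, against 14.5% of all genes. CPT1A, which carries fatty acids to the mitochondrion and limits their oxidation, had 94.9, 43.6 and 37.5 in the controls and 427, 230.3 and 409 after heat. Its control values lay at background level, so the fold is uncertain, and the heat values lay well above it (log2 change 2.35, SE 0.31, adjusted p = 0.00606). PPARGC1A, the coactivator PGC-1 alpha, had 786, 334 and 575 in the controls and 2629, 1998 and 1927 after heat. All heat values lay well above all controls (log2 change 1.99, SE 0.28, adjusted p = 0.00707). ECI2, a related isomerase, had 3427, 2698 and 3001 in the controls and 7515, 7578 and 7463 after heat, a narrow range in each group (log2 change 1.31, SE 0.11, adjusted p = 0.00226).

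HADHB, a subunit of the mitochondrial trifunctional protein, rose by 0.82 (adjusted p = 0.00947). PDK4, a kinase that shuts off pyruvate dehydrogenase, had 2702, 249 and 753 in the controls and 6114, 5387 and 4093 after heat. Control 1 was far above the other controls, and the groups were still separate (log2 change 2.65, SE 0.67, adjusted p = 0.0359). PPARA, the receptor that drives many of these genes, read a mean of 648 ± 178 (SD, n = 3) in the controls and 997 ± 167 after heat and was not called (adjusted p = 0.0875). CPT2 had a change of -0.03 (adjusted p = 0.919). Dropping 1 array at a time, the calls of CPT1A, PPARGC1A, ECI2 and HADHB held throughout, and calls were lost for ECI1 without control 3 (adjusted p up to 0.0567) and PDK4 without control 2, control 3, heat 1, heat 2 or heat 3 (adjusted p up to 0.120).

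Read from the brightest probe set of each gene, the largest fitted rise was that of PCK1, the cytosolic phosphoenolpyruvate carboxykinase that commits carbon to glucose production, with 426, 8.32 and 53.2 in the controls and 3096, 1491 and 2800.1 after heat. Controls 2 and 3 were below background level and control 1 was not, so the groups were separate, the controls differed widely and the size of the rise is uncertain (log2 change 4.71, SE 0.86, adjusted p = 0.0154). Its change ranged from 3.77 to 5.86 when each array was left out in turn, and the call was lost without control 3 or heat 1 (adjusted p up to 0.0634). G6PC2, a glucose-6-phosphatase subunit, changed by 0.95 (adjusted p = 0.0159), whereas G6PC (0.39, adjusted p = 0.318) and FBP1 (-0.02, adjusted p = 0.880) did not pass the test.

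PPP1R3B, which brings a phosphatase to glycogen and favours its synthesis, had 4103, 3749.8 and 4552 in the controls and 1926, 1039 and 1225 after heat. All heat values were below all controls (log2 change -1.60, SE 0.21, adjusted p = 0.00623). PYGL, liver glycogen phosphorylase, fell from a mean of 3059 ± 149.7 (SD, n = 3) to 1757 ± 53.9 (log2 change -0.79, SE 0.11, adjusted p = 0.00685). LDHB, a lactate dehydrogenase subunit, rose by 0.58 (adjusted p = 0.00920) from a mean of 9475 ± 522 (SD, n = 3) to 14157 ± 776. Over the whole list of glucose production and glycogen genes, 3 of 17 rose and 3 fell, PGM1, a phosphoglucomutase, being the third fall (-0.47), and the median was -0.10. The share called was 35.3%, against 14.5% of all genes. Refitted without each array in turn, the calls of PPP1R3B, PYGL and LDHB held throughout, and calls were lost for G6PC2 without heat 1 (adjusted p up to 0.0581) and PGM1 without control 1, control 2, control 3, heat 1 or heat 2 (adjusted p up to 0.114).

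Glycolysis and fructose metabolism showed falls, 5 of 20 tested, with a median of -0.39 and no rise. The share called was 25%, against 14.5% of all genes. KHK, the kinase that takes up fructose, had 2195, 2077 and 2394 in the controls and 1164, 914 and 927 after heat, with no overlap (log2 change -1.14, SE 0.14, adjusted p = 0.00528). PFKL, liver phosphofructokinase, fell by 0.92 on the log2 scale (adjusted p = 0.00869). PGK2 (phosphoglycerate kinase, by the symbol of the platform annotation), TPI1 and PGAM1 fell by 0.60, 0.53 and 0.57. GAPDH had a change of -0.24 (adjusted p = 0.129). HKDC1, a hexokinase-like gene outside the list and among the 20 largest falls, had 202, 273 and 649 in the controls and 96.9, 84.7 and 80.9 after heat, a change of -1.75 (adjusted p = 0.0184). For pyruvate entry and the tricarboxylic acid cycle, 5 of 25 fell and 2 rose (28% called, median -0.06). IDH3B, a subunit of NAD-dependent isocitrate dehydrogenase, had 517, 536 and 626 in the controls and 256, 278 and 249.8 after heat and changed by -1.05 (adjusted p = 0.00565). PDHA2, annotated as the E1 alpha subunit of pyruvate dehydrogenase, fell by 0.83, and MPC1L, annotated as a mitochondrial pyruvate carrier, rose by 0.83. The other falls were IDH2 (-0.45), OGDH (-0.78) and DLST (-0.55), and the other rise was SUCLA2 (0.68), all enzymes of the cycle. Over the fits that each lacked 1 array, the calls of KHK and PFKL held throughout, and calls were lost for PGK2 without control 3 or heat 1 (adjusted p up to 0.0571), TPI1 without control 2, control 3 or heat 1 (adjusted p up to 0.0715), PGAM1 without control 1, control 2, control 3, heat 1 or heat 2 (adjusted p up to 0.0980) and HKDC1 without heat 1 or heat 3 (adjusted p up to 0.0625). With 1 array left out at a time, the call of IDH3B held throughout, and calls were lost for PDHA2 without control 3 (adjusted p up to 0.0527), MPC1L and IDH2 without control 2, control 3 or heat 1 (adjusted p up to 0.0627 and 0.0811), OGDH without control 2, control 3, heat 1 or heat 3 (adjusted p up to 0.0885), DLST without control 1, control 2, control 3, heat 1 or heat 3 (adjusted p up to 0.101) and SUCLA2 without control 2, control 3, heat 1, heat 2 or heat 3 (adjusted p up to 0.105).

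Of 25 insulin and growth factor signalling genes, 9 rose, 1 fell and 15 were not called, with a median of 0.41. The share called was 40%, against 14.5% of all genes. IRS2, an adaptor of the insulin receptor, had 744, 339.8 and 520.3 in the controls and 1876, 1246 and 1443 after heat, with control 1 highest among the controls (log2 change 1.53, SE 0.27, adjusted p = 0.0136). The 2 other probe sets for IRS2 did not share its direction. IRS4, a related adaptor, read 892, 557 and 625 in the controls and 1725, 1627 and 1671 after heat and its heat values were close together (log2 change 1.28, SE 0.18, adjusted p = 0.00685). IGFBP3, which binds insulin-like growth factors in blood, changed by 0.84 (adjusted p = 0.0123), and the IGF2 receptor gene IGF2R by 0.52. IGFBP1, a binding protein that liver secretes when insulin is low, had 4998, 1515 and 2194 in the controls and 7382, 6748 and 7063 after heat. Control 1 again stood above the other controls, and the change was 1.46 (SE 0.35, adjusted p = 0.0319). The FOXO factors, which insulin restrains, changed by 0.49 (FOXO1, adjusted p = 0.0417) and 0.68 (FOXO3, adjusted p = 0.0371). GCGR, the glucagon receptor, was the gene that fell (a mean of 409 ± 192 (SD, n = 3) against 187 ± 25.2, log2 change -0.98, adjusted p = 0.0494). Leaving out each array in turn, the call of IRS4 held throughout, and calls were lost for IRS2 without heat 1 (adjusted p up to 0.0570), IGFBP3 without control 3 (adjusted p up to 0.0535), IGF2R without control 2, control 3, heat 1 or heat 3 (adjusted p up to 0.108), IGFBP1 without control 2, control 3, heat 1, heat 2 or heat 3 (adjusted p up to 0.105), FOXO1 whichever array was left out (adjusted p up to 0.128), FOXO3 without control 1, control 2, control 3, heat 1 or heat 3 (adjusted p up to 0.124) and GCGR without control 3, heat 1, heat 2 or heat 3 (adjusted p up to 0.120). Without control 2, control 3 or heat 1 the genes of the list that rose numbered 3, 2 and 2.

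Among nuclear receptors and liver transcription factors, 3 of 22 rose and 2 fell (median 0.05), 22.7% called against 14.5% of all genes. HNF4A, a master factor of hepatocyte identity, had 1388, 1257 and 1312 in the controls and 794, 666 and 733 after heat, with every heat value below every control (log2 change -0.84, SE 0.13, adjusted p = 0.00988). CREBL2, a bZIP protein, rose by 1.19 (adjusted p = 0.00685), and CREB3L3, a liver bZIP factor of fasting, by 0.79 (adjusted p = 0.0136). LPIN2, a phosphatidate phosphatase, rose by 0.70, and KLF9 fell by 0.70 on the log2 scale. ELF3, an ETS family factor and one of the 20 largest falls, read 1130.4, 1649 and 1639 in the controls and 429, 364 and 323 after heat, a change of -1.93 (adjusted p = 0.00298). Of 17 clock genes, 4 rose and 1 fell (29.4% called). BHLHE41 (DEC2), a repressor of the clock, had 2026, 1630.0 and 2545 in the controls and 329.5, 266 and 549 after heat, and the groups were far apart (log2 change -2.43, SE 0.26, adjusted p = 0.00392). RORA, an activator of the clock, changed by 0.94 (adjusted p = 0.00965) and CRY1, a repressor, by 0.97 (adjusted p = 0.0254). ARNTL (BMAL1), the partner of CLOCK, and NFIL3, a bZIP repressor, rose by 0.62 and 0.79. CLOCK and PER2 had changes of 0.27 and -0.22 and were not called. When each array was dropped in turn, the calls of HNF4A, CREBL2 and ELF3 held throughout, and calls were lost for CREB3L3 without heat 1 (adjusted p up to 0.0538), LPIN2 without control 2, control 3, heat 1, heat 2 or heat 3 (adjusted p up to 0.0823) and KLF9 without control 2, control 3, heat 1 or heat 3 (adjusted p up to 0.114). In the 6 leave-one-out fits, the calls of BHLHE41 and RORA held throughout, and calls were lost for CRY1 without control 2, control 3, heat 1 or heat 3 (adjusted p up to 0.0821), ARNTL without control 1, control 2, control 3, heat 1 or heat 3 (adjusted p up to 0.123) and NFIL3 without control 2, control 3, heat 1 or heat 2 (adjusted p up to 0.130).

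Of 10 thyroid hormone genes, DIO3 and SLC16A10 rose and THRSP fell, 30% called against 14.5% of all genes. DIO3, the deiodinase that inactivates thyroid hormone, had 2769, 789 and 1116 in the controls and 3436, 5390.4 and 4698 after heat. The heat values were above the controls, but control 1 at 2769 was near heat 1 at 3436 (log2 change 1.71, SE 0.40, adjusted p = 0.0285). SLC16A10, a carrier of thyroid hormone and aromatic amino acids, read 711, 764 and 991 in the controls and 1749, 1619 and 1229 after heat (0.88, adjusted p = 0.0203). Retinoic acid synthesis, outside the fixed lists, supplied a pair of the 20 largest rises: ALDH1A2 (66.7, 48.3 and 52.98 in the controls and 259, 155 and 206 after heat, log2 change 1.61) and ALDH1A3 (139, 116 and 118 in the controls and 344, 324 and 696 after heat, log2 change 1.66) both encode retinaldehyde dehydrogenases. For neither of the pair did the groups overlap, but the controls of ALDH1A2 lay at background level, so its fold is uncertain. Dropping 1 array at a time, the calls of ALDH1A2 and ALDH1A3 held throughout, and calls were lost for DIO3 without control 2, control 3, heat 1, heat 2 or heat 3 (adjusted p up to 0.0890) and SLC16A10 without control 2 or heat 1 (adjusted p up to 0.0738).

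Cytochrome P450 and conjugation genes moved in both directions, 3 of 35 up and 9 down (34.3% called against 14.5% of all genes). Their median of -0.14 became 0.01 on the scaling as deposited. CYP1A1, a P450 induced through the aryl hydrocarbon receptor, had the largest fall of all named genes, with 3175, 2943 and 2759.6 in the controls and 418, 469 and 179 after heat. Heat 3 was lowest, and every heat value was far below every control (log2 change -3.11, SE 0.31, adjusted p = 0.00298). CYP1A2 of the same family had 9954, 8697 and 10452 in the controls and 4279.6, 2436 and 3712 after heat and changed by -1.51 (adjusted p = 0.00565). AHR1A, an aryl hydrocarbon receptor, had a change of -0.08 (adjusted p = 0.735). CYP2AC1 rose, from a mean of 3230.5 ± 698 (SD, n = 3) to 8096 ± 1765 (log2 change 1.32, adjusted p = 0.00947), as did CYP4B7 (1.32) and CYP4V2 (0.85). SULT1E1, estrogen sulfotransferase, fell by 0.83. Of 14 bile acid genes, BAAT, which conjugates bile acids, fell (1496, 1272 and 1677 in the controls and 511, 668 and 659.8 after heat, log2 change -1.25, adjusted p = 0.00603) and KLB, co-receptor of FGF19, rose (1.13, adjusted p = 0.0133). CYP7A1, the rate-limiting enzyme of bile acid synthesis, had a change of 0.45 (adjusted p = 0.492). Calls in the bile acid list, 14.3% of its tested genes, were as frequent as over all genes (14.5%). Refitted without each array in turn, the calls of CYP1A1, CYP1A2, CYP2AC1, BAAT and KLB held throughout, and calls were lost for CYP4B7 and CYP4V2 without control 2, control 3, heat 1 or heat 3 (adjusted p up to 0.0797 and 0.0941) and SULT1E1 without control 3 (adjusted p up to 0.0517).

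Antioxidant genes gave 4 falls among 23, with no rise and a median of -0.03. The share called was 17.4%, against 14.5% of all genes. The falls were GSR, glutathione reductase (-0.79, adjusted p = 0.0118), NQO1, a quinone reductase (-0.71, adjusted p = 0.0190), and the peroxiredoxins PRDX6 (-0.48) and PRDX3 (-0.47). The other tested probe set of PRDX3 had the opposite sign (0.19) and was not called. HMOX1, heme oxygenase and a common marker of oxidative stress, read 3900.0, 4497 and 4586 in the controls and 3432, 3832 and 4591 after heat, with overlapping groups (adjusted p = 0.511). NFE2L2, the NRF2 factor, had a change of 0.19. In heme and iron handling, UROD, an enzyme of heme synthesis, fell from a mean of 595 ± 15.7 (SD, n = 3) to 295 ± 24.9 (adjusted p = 0.00609). TFRC, the transferrin receptor, fell from a mean of 2297 ± 234 (SD, n = 3) to 1309 ± 54.0 (adjusted p = 0.0106). These were the 2 genes called of 20, a share of 10% against 14.5% of all genes. Another tested probe set of TFRC changed by -0.11 and was not called. Over the fits that each lacked 1 array, the calls of UROD and TFRC held throughout, and calls were lost for GSR without control 3 (adjusted p up to 0.0529), NQO1 without control 3 or heat 1 (adjusted p up to 0.0712), PRDX6 without control 2, control 3 or heat 1 (adjusted p up to 0.108) and PRDX3 without control 2, control 3, heat 1 or heat 3 (adjusted p up to 0.122).

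**Figure D3:**
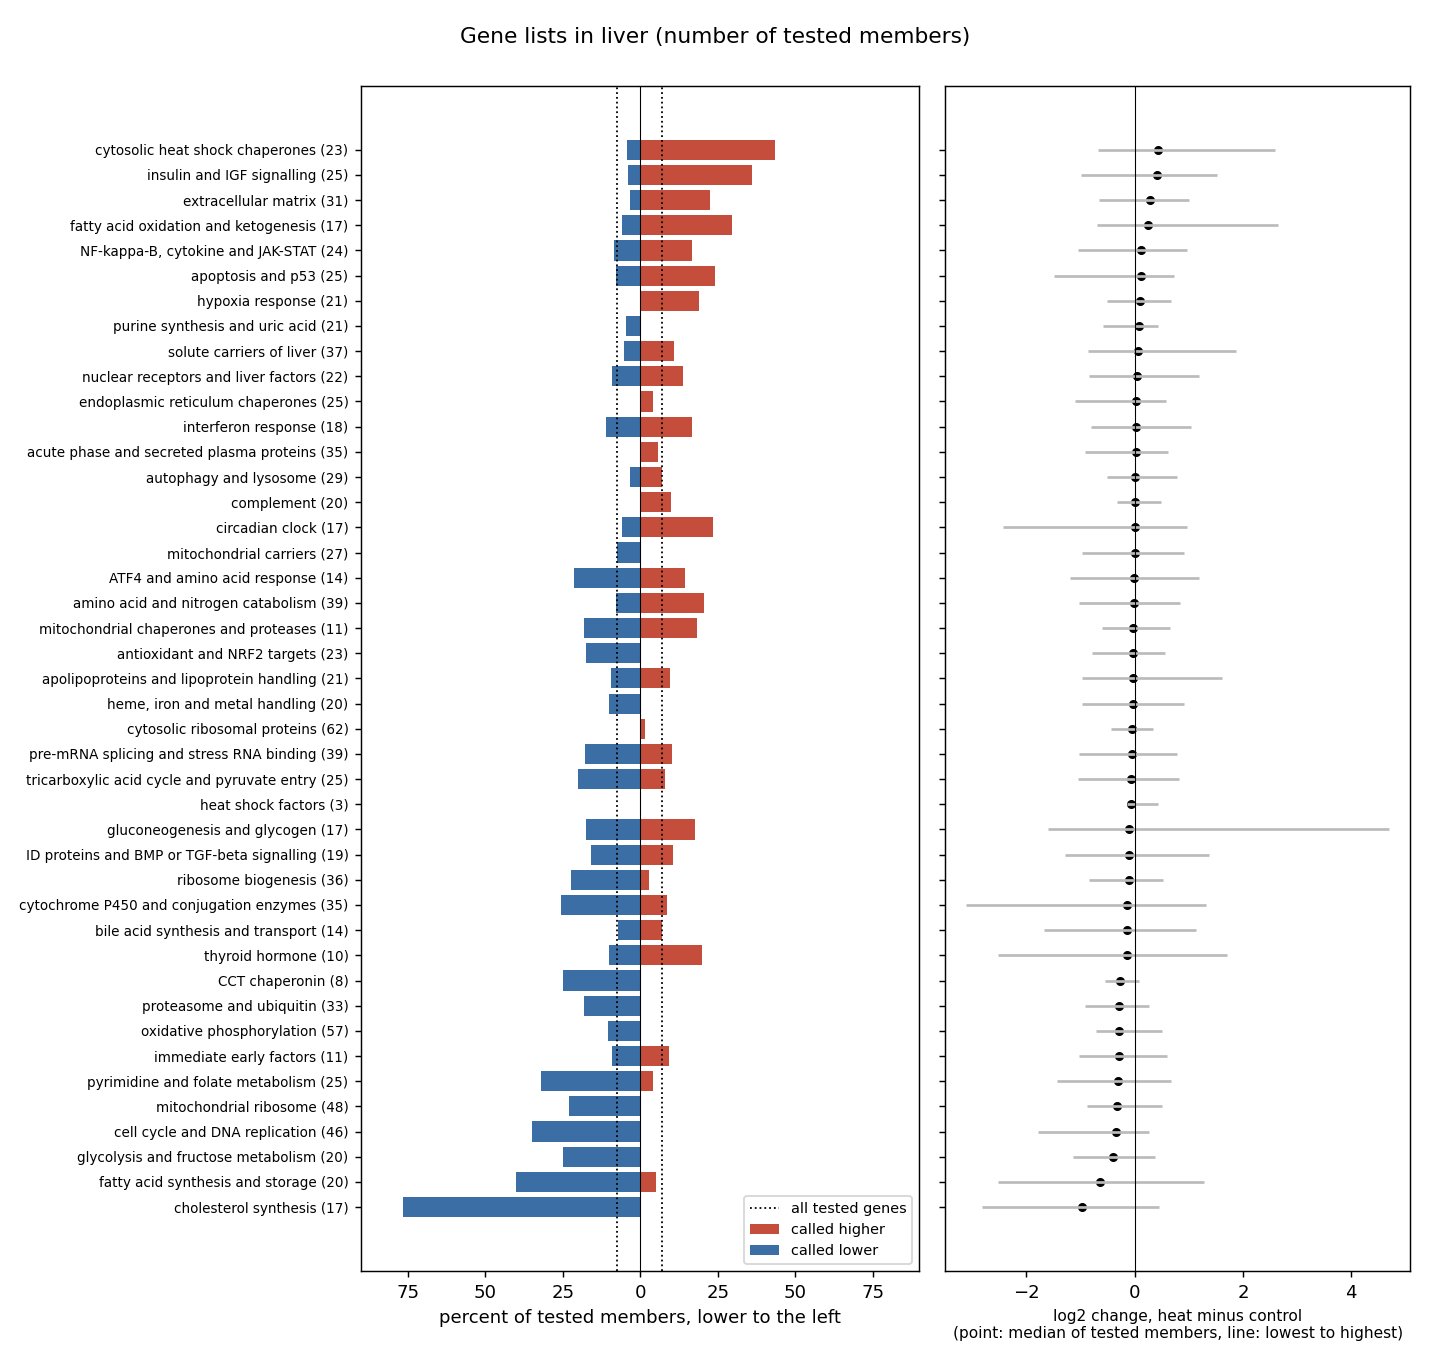
For each of 43 gene lists, the percentage of tested genes that rose and fell (left, with dotted lines at 7.07% and 7.45% for all genes) and the median log2 change with the range of its members (right). Cholesterol synthesis stands lowest (median -0.98) and cytosolic heat shock chaperones highest (0.43).

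DNA replication and cell cycle genes fell in 16 of 46 cases and rose in none, with a median of -0.35. The share called was 34.8%, against 14.5% of all genes. The MCM helicase subunits, which open DNA at replication origins, were low together. MCM3 had 768, 869 and 743 in the controls and 234, 204 and 220.1 after heat, and the groups were narrow and far apart (log2 change -1.78, SE 0.13, adjusted p = 0.00114). MCM5 had 1100.5, 1099.9 and 959 in the controls and 279.6, 351 and 416 after heat (-1.57, adjusted p = 0.00390), and MCM2 and MCM6 fell by 1.42 and 0.92 on the log2 scale. Other tested probe sets of MCM6 changed by -0.02 and -0.43, neither called. E2F1, which drives S-phase genes, fell from a mean of 2236 ± 220.3 (SD, n = 3) to 1201 ± 135 (-0.89, adjusted p = 0.0101). PCNA, the sliding clamp of DNA polymerase, fell by 0.70 and TOP2A by 0.58. CDKN2B, an inhibitor of the cell cycle, also fell (656, 532 and 933 in the controls and 248, 114 and 245 after heat, log2 change -1.76, adjusted p = 0.0129). CDK1, the mitotic kinase, and CDKN1A (p21) had changes of -0.30 and -0.03 and were not called. With 1 array left out at a time, the calls of MCM3, MCM5, MCM2, MCM6, E2F1 and CDKN2B held throughout, and calls were lost for PCNA without control 2, control 3 or heat 1 (adjusted p up to 0.0587) and TOP2A whichever array was left out (adjusted p up to 0.126). The list's falls numbered 8, 8 and 8 without control 2, control 3 or heat 1.

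Genes that make nucleotides for DNA fell alongside. In pyrimidine and folate metabolism 8 of 25 fell and 1 rose (36% called against 14.5% of all genes, median -0.31). The falls numbered 3 to 5 when 1 array was left out, and the scaling as deposited gave 4 falls, 2 rises and a median of -0.16. TK1, thymidine kinase, had 1321, 927 and 934 in the controls and 372, 384 and 379.9 after heat, with heat values within a narrow range (log2 change -1.43, SE 0.16, adjusted p = 0.00440). RRM1 and RRM2, the subunits of ribonucleotide reductase, fell by 1.06 and 0.96 on the log2 scale, and UCK2, a uridine-cytidine kinase, by 1.18. The gene that rose was MTHFD1, an enzyme of folate metabolism (0.55). Purine synthesis and uric acid formation, the route of nitrogen disposal in birds, had 1 call among 21 genes (IMPDH2, -0.58, adjusted p = 0.0373) and a median of 0.07. XDH, the enzyme that makes uric acid, had a change of 0.05 (adjusted p = 0.911). Amino acid catabolism had 8 rises and 3 falls among 39 genes (28.2% called, against 14.5% of all genes). TAT and TDO2, which break down tyrosine and tryptophan, rose by 0.84 and 0.67, GPT2, alanine aminotransferase 2, by 0.68, and GNMT, glycine N-methyltransferase, fell by 1.03 (a mean of 3689.9 ± 320.2 (SD, n = 3) against 1805 ± 185, adjusted p = 0.00543). ALDH4A1 of proline breakdown and the aspartate aminotransferase GOT2 fell by 0.81 and 0.45. Leaving out each array in turn, the calls of TK1, RRM2 and UCK2 held throughout, and calls were lost for RRM1 without heat 1 (adjusted p up to 0.0520), MTHFD1 without control 2, control 3, heat 1 or heat 3 (adjusted p up to 0.113) and IMPDH2 whichever array was left out (adjusted p up to 0.108). When each array was dropped in turn, the calls of GPT2 and GNMT held throughout, and calls were lost for TAT without control 2, control 3, heat 1 or heat 3 (adjusted p up to 0.109), TDO2 without control 2, control 3, heat 1, heat 2 or heat 3 (adjusted p up to 0.140), ALDH4A1 without control 3 or heat 1 (adjusted p up to 0.0574) and GOT2 without control 1, control 2, control 3, heat 1 or heat 3 (adjusted p up to 0.0844).

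Lists of protein synthesis and turnover differed in their calls. Of 48 mitochondrial ribosomal proteins, 11 fell and none rose (median -0.33), led by MRPL2 (1754, 1649 and 1676 in the controls and 937, 1141 and 881 after heat, log2 change -0.78, adjusted p = 0.0138). MRPL10, MRPL24 and MRPL16 fell by 0.70, 0.85 and 0.89 on the log2 scale. Of 57 genes of oxidative phosphorylation, 6 fell and none rose (median -0.29), such as NDUFV1 (-0.52, adjusted p = 0.0206), NDUFS8 (-0.70) and NDUFS7 (-0.46) of complex I and ATP5B of the ATP synthase (-0.39, adjusted p = 0.0319). Of 33 proteasome and ubiquitin genes, 6 fell and none rose (median -0.29), among them PSMD2 (-0.79), PSMD3 (-0.91) and PSMC5 (-0.71) of the regulatory particle and PSMB4 (-0.61) of the core. In ribosome biogenesis 8 of 36 fell and 1 rose (median -0.11). RRP9, NOLC1, NOC2L and WDR12 fell by 0.61, 0.85, 0.66 and 0.52, and the RNA helicase DDX10 rose by 0.53. Other tested probe sets of NOC2L (-0.05) and WDR12 (-0.20 and -0.32) were not called. By contrast, 1 of 62 cytosolic ribosomal proteins was called (RPL5, 0.33, adjusted p = 0.0470), and their median was -0.04, the same as over all genes. On the scaling as deposited 1 rose and 5 fell of the mitochondrial ribosome, 2 rose and 1 fell of oxidative phosphorylation, and 2 rose and 3 fell of ribosome biogenesis. The number of falls in these lists thus differed with the scaling. The medians of the first 2 lists were -0.20 and -0.21 on the scaling as deposited. The share called in oxidative phosphorylation, 10.53%, was below the 14.5% of all genes, and that of the proteasome list was 18.2%. For the mitochondrial ribosome it was 22.9%, for ribosome biogenesis 25% and for cytosolic ribosomal proteins 1.61%. In the 6 leave-one-out fits, calls were lost for MRPL2 without control 3 or heat 1 (adjusted p up to 0.0557), MRPL10 and NDUFV1 without control 2, control 3 or heat 1 (adjusted p up to 0.0712 and 0.0830), MRPL24, MRPL16, NDUFS8 and NDUFS7 without control 2, control 3, heat 1 or heat 3 (adjusted p up to 0.0712, 0.0719, 0.0952 and 0.139) and ATP5B without control 1, control 2, control 3, heat 1 or heat 3 (adjusted p up to 0.116). Dropping 1 array at a time, calls were lost for PSMD2 without control 3 (adjusted p up to 0.0501), PSMD3 without control 3 or heat 1 (adjusted p up to 0.0529), PSMC5, RRP9 and NOLC1 without control 2, control 3 or heat 1 (adjusted p up to 0.0618, 0.0672 and 0.0706), PSMB4 without control 2 or control 3 (adjusted p up to 0.0643), NOC2L and WDR12 without control 2, control 3, heat 1, heat 2 or heat 3 (adjusted p up to 0.0913 and 0.0975) and DDX10 and RPL5 whichever array was left out (adjusted p up to 0.172 and 0.167). The falls in the mitochondrial ribosome, oxidative phosphorylation and proteasome lists numbered 0 in each without control 3 and 15, 17 and 7 without heat 2.

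Of 39 splicing genes, 4 rose and 7 fell (median -0.05), with 2 falls on the scaling as deposited. Calls were made for 28.2% of them, against 14.5% of all genes. SNRPA1, a U2 snRNP protein, fell by 1.02 (adjusted p = 0.0110) and CLK4, a kinase of splicing factors, rose by 0.78 (adjusted p = 0.0147). PRPF19 and SRSF3 fell by 0.67 and 0.52, and the other rises were SF3B1 (0.56), HNRNPDL (0.69) and CLK1 (0.49). The other tested probe set of SF3B1 and that of HNRNPDL had the opposite sign. In autophagy, ATG5 had 367, 358 and 381 in the controls and 645, 649 and 642 after heat, with closely spaced values in both groups (log2 change 0.78, SE 0.12, adjusted p = 0.00990). MAP1LC3A rose by 0.69, while ATG9A fell by 0.51, and SQSTM1 (p62) had a change of -0.08 (adjusted p = 0.657). Calls were made for 10.3% of the 29 autophagy and lysosome genes, below the 14.5% of all genes. Of 14 ATF4-linked genes, AARS1, alanyl-tRNA synthetase, fell (1052, 1126 and 1113 in the controls and 456, 480.4 and 473 after heat, log2 change -1.19, SE 0.12, adjusted p = 0.00346), as did the tRNA synthetases SARS1 (-0.74) and GARS (-0.60). SLC38A2, an amino acid transporter, and PSAT1, an enzyme of serine synthesis, rose by 0.93 and 0.57. ATF4 itself and ASNS, one of its targets, had changes of -0.02 and 0.36 and were not called. The share called of the ATF4-linked genes was 35.7%, against 14.5% of all genes. Refitted without each array in turn, the call of SNRPA1 held throughout, and calls were lost for CLK4 without control 2 or heat 1 (adjusted p up to 0.0566), PRPF19 without control 2, control 3, heat 1 or heat 3 (adjusted p up to 0.0812), SRSF3 without control 2, control 3 or heat 1 (adjusted p up to 0.0707) and SF3B1, HNRNPDL and CLK1 without control 1, control 2, control 3, heat 1 or heat 3 (adjusted p up to 0.0958, 0.114 and 0.128). Over the fits that each lacked 1 array, the calls of ATG5 and AARS1 held throughout, and calls were lost for MAP1LC3A, SLC38A2 and PSAT1 without control 2, control 3, heat 1 or heat 3 (adjusted p up to 0.0673, 0.0858 and 0.0945), ATG9A without control 2, control 3, heat 2 or heat 3 (adjusted p up to 0.0943), SARS1 without control 2, control 3 or heat 1 (adjusted p up to 0.0612) and GARS without control 1, control 2, control 3, heat 1 or heat 2 (adjusted p up to 0.112).

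Plasma protein and complement genes gave calls for 5.71% and 10% of their tested genes, below the 14.5% of all genes. Among 35 plasma protein genes, ITIH3 (0.40, adjusted p = 0.0398) and coagulation factor F5 (0.36, adjusted p = 0.0451) were called. Among 20 complement genes, MBL2, a lectin that starts the cascade (9931, 8913 and 9128 in the controls and 13105, 11972 and 12569.9 after heat, log2 change 0.43, adjusted p = 0.0196), and C5 (0.41) rose. SAA, an acute phase protein, had a change of -0.03 (adjusted p = 0.835), TTR one of -0.06 and C3 one of -0.02. In lipoprotein handling, LIPC, hepatic lipase, had 311, 160.1 and 249 in the controls and 917, 934 and 482 after heat (log2 change 1.62, SE 0.30, adjusted p = 0.0154), and VLDLR rose by 0.81. APOA5, a regulator of triglyceride clearance, and SCARB1, the receptor of high-density lipoprotein, fell by 0.97 and 0.71. The lipoprotein list thus had 2 rises and 2 falls among 21 genes, 19.0% called against 14.5% of all genes. APOA1 and APOB had changes of -0.08 and 0.37 and were not called. LEAP2, an antimicrobial peptide that also blocks the ghrelin receptor and is among the 20 largest falls, had 4420.3, 5113 and 5419.5 in the controls and 1595, 1319 and 1081 after heat, with no overlap (log2 change -1.90, SE 0.16, adjusted p = 0.00216). With 1 array left out at a time, calls were lost for ITIH3 and F5 without control 1, control 2, control 3, heat 1 or heat 3 (adjusted p up to 0.129 and 0.144), MBL2 without control 2, control 3 or heat 1 (adjusted p up to 0.0856) and C5 without control 2, control 3, heat 1 or heat 3 (adjusted p up to 0.108). Leaving out each array in turn, the call of LEAP2 held throughout, and calls were lost for LIPC without heat 1 (adjusted p up to 0.0623), VLDLR without control 3, heat 1, heat 2 or heat 3 (adjusted p up to 0.0877), APOA5 without control 3, heat 1 or heat 3 (adjusted p up to 0.0815) and SCARB1 without control 2, control 3, heat 1 or heat 2 (adjusted p up to 0.116).

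Immune signalling genes moved in both directions. Of 24 NF-kappa-B, cytokine and JAK-STAT genes, 4 rose and 2 fell, 25% called against 14.5% of all genes, and 0 to 3 rose when 1 array was left out. SOCS3, a feedback inhibitor of cytokine signalling, fell from a mean of 1985 ± 358 (SD, n = 3) to 971 ± 270.1 (-1.04, adjusted p = 0.0227), and STAT3 fell by 0.53. NFKBIA and NFKBIZ, inhibitors or modulators of NF-kappa-B, rose by 0.66 and 0.96, as did the double-stranded RNA receptor TLR3 (0.82) and the cytokine IL18 (0.61). Of 18 interferon genes 27.8% were called. SAMD9L (145, 144 and 159.9 in the controls and 331, 359.7 and 286 after heat, log2 change 1.04, adjusted p = 0.00565), IFIT5 (1.02) and IFIH1 (0.69) rose, and IFI35 (-0.80) and DHX58 (-0.57) fell. MHCY4, an MHC Y class I gene from a multigene family whose copies can share probes, had 2972, 3434 and 3616 in the controls and 2089.8, 1095 and 358 after heat and an adjusted p of 0.0484. All heat values lay below all controls, and they spread widely, with heat 3 lowest. When each array was dropped in turn, calls were lost for SOCS3 without control 2 or heat 1 (adjusted p up to 0.0783), STAT3 without control 1, control 2, control 3, heat 1 or heat 2 (adjusted p up to 0.116), NFKBIA without control 2, control 3, heat 1 or heat 2 (adjusted p up to 0.0943), NFKBIZ without control 2, control 3, heat 2 or heat 3 (adjusted p up to 0.0853), TLR3 without control 2, control 3, heat 1 or heat 3 (adjusted p up to 0.115) and IL18 without control 1, control 2, control 3, heat 1 or heat 3 (adjusted p up to 0.126). In the 6 leave-one-out fits, the calls of SAMD9L, IFIT5 and IFI35 held throughout, and calls were lost for IFIH1 without control 2, control 3, heat 1 or heat 3 (adjusted p up to 0.104), DHX58 without control 2, control 3, heat 1, heat 2 or heat 3 (adjusted p up to 0.116) and MHCY4 without control 1, control 2, control 3 or heat 2 (adjusted p up to 0.124).

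For cell survival and hypoxia most calls were rises. BCL2L1, an inhibitor of apoptosis, had 689, 607 and 534 in the controls and 186, 248 and 191 after heat, with no overlap (log2 change -1.49, SE 0.16, adjusted p = 0.00392). BNIP3, which marks mitochondria for removal, rose by 0.67 (adjusted p = 0.0143), and SESN1 and BCL2A1 by 0.61 and 0.73. Apoptosis and p53 genes in all had 6 rises and 2 falls of 25, with 0 rises without control 3 and at most 4 in the other leave-one-out fits. In the main fit 32% of them were called, against 14.5% of all genes. Of 21 hypoxia genes 4 rose, BNIP3, NDRG1, EGLN1 and KDM3A, and none fell, so 19.0% were called against 14.5% of all genes. HIF1A (0.46, adjusted p = 0.0577) and VEGFA (0.21, adjusted p = 0.585) were not called. ID1, ID3 and ID4, inhibitors of DNA binding downstream of BMP receptors, fell by 1.28, 1.08 and 0.93 on the log2 scale, whereas SMAD1 and the receptor BMPR2 rose by 0.75 and 0.56, out of 19 genes (26.3% called). Of 11 immediate early genes, KLF10 fell (1109, 951 and 1139.6 in the controls and 551, 458 and 538 after heat, log2 change -1.03, SE 0.14, adjusted p = 0.00676) and BTG1 rose (0.60, adjusted p = 0.0171), and JUN (-0.46) and MYC (-0.32) were not called. Calls in this list, 18.2% of it, were near the 14.5% of all genes. Dropping 1 array at a time, the call of BCL2L1 held throughout, and calls were lost for BNIP3 without control 3 (adjusted p up to 0.0614), SESN1 and NDRG1 without control 2, control 3, heat 1 or heat 3 (adjusted p up to 0.0715 and 0.0864), BCL2A1 without control 1, control 2, control 3 or heat 1 (adjusted p up to 0.0808), EGLN1 whichever array was left out (adjusted p up to 0.139) and KDM3A without control 1, control 2, control 3, heat 1 or heat 3 (adjusted p up to 0.136). Refitted without each array in turn, the calls of ID1, ID3 and KLF10 held throughout, and calls were lost for ID4 without control 2 or heat 1 (adjusted p up to 0.0634), SMAD1 without control 2, control 3, heat 1, heat 2 or heat 3 (adjusted p up to 0.106) and BMPR2 and BTG1 without control 2, control 3, heat 1 or heat 3 (adjusted p up to 0.0988 and 0.0683).

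Membrane carriers gave 4 rises and 2 falls among 37 solute carriers, against 7 and 1 on the scaling as deposited. The share called, 16.2%, was near the 14.5% of all genes. SLC22A5, the carnitine carrier, had 3723, 3235 and 3032 in the controls and 6706, 5961 and 6631 after heat, and no group overlapped (log2 change 0.95, SE 0.12, adjusted p = 0.00515). SLC16A5, a monocarboxylate carrier, had 776, 288 and 414 in the controls and 1927, 1290.0 and 1960.4 after heat (1.87, adjusted p = 0.0134), and SLC6A6, the taurine carrier, rose by 1.25 (adjusted p = 0.00869). SLC7A3, a carrier of basic amino acids, and SLC27A4, a fatty acid carrier, fell by 0.86 and 0.52. Other tested probe sets of SLC7A3 changed by -0.02, -0.15 and -0.28, and none of them was called. SLC38A2 was the other rise. Of 27 mitochondrial and related carriers, SLC25A17 of the peroxisome (-0.81) and SLC25A37, which imports iron (-0.98), fell. That is 7.41% of this list, below the share of all genes. Another tested probe set of SLC25A37 changed by -0.02 and was not called. Over the fits that each lacked 1 array, the calls of SLC22A5, SLC6A6 and SLC25A17 held throughout, and calls were lost for SLC16A5 without heat 1 (adjusted p up to 0.0570), SLC7A3 without control 2 or heat 1 (adjusted p up to 0.0578), SLC27A4 whichever array was left out (adjusted p up to 0.123) and SLC25A37 without control 2, control 3, heat 1 or heat 3 (adjusted p up to 0.0614).

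Other genes among the 20 largest rises belong to none of these lists. CIDEA, a lipid droplet protein, had 354, 218 and 285 in the controls and 1128, 970.5 and 811 after heat and changed by 1.72 (adjusted p = 0.00440). DNAJC12, a J-domain cochaperone of aromatic amino acid hydroxylases, had 976, 612 and 574 in the controls and 3064, 2800.1 and 1987 after heat and changed by 1.85 (adjusted p = 0.00547). In both, all heat values exceeded all controls. CDCA9 (2.04), ABCB1LA, annotated as an ABC transporter (1.79), and MC5R, a melanocortin receptor (1.65), also rose. ANKRD9, an ankyrin repeat protein, was the remaining gene of the 20 largest falls (4591, 3237 and 3355 in the controls and 862, 1272 and 1449 after heat, log2 change -1.64, adjusted p = 0.00598). Control 1 held the highest control value in 19 of the 20 largest rises, against 44.4% of the 676 genes called higher and 33.8% of all tested genes. In the 20 largest falls control 3 was the highest control in 16. With 1 array left out at a time, the calls of CIDEA, DNAJC12, CDCA9, ABCB1LA, MC5R and ANKRD9 held throughout.

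A further group of the largest rises consists of genes whose transcripts are far more abundant in brain. EEF1A2, a translation elongation factor of neurons and muscle, had 123, 97.2 and 69.2 in the controls and 321, 321 and 915 after heat. Its control mean was 12686 in brain and still higher in muscle, 17401.5. RTN1, a neuronal reticulon, had 104, 109.5 and 117 in the controls and 490.4, 271 and 679 after heat. VSNL1, a neuronal calcium sensor, changed by 1.75. SNAP25, a synaptic fusion protein, had 58.8, 40.8 and 49.5 in the controls and 195, 99.8 and 319.6 after heat, so its controls lay at background level and it was tested through its heat values. Heat 3 held the highest value of EEF1A2, RTN1 and SNAP25 and heat 1 that of VSNL1. The summed intensity of muscle markers was also highest on heat 3. The levels on the heat arrays were 2.59% to 7.39% of the brain control mean for EEF1A2, 1.94% to 4.84% for RTN1, 0.97% to 3.06% for SNAP25 and 5.52% to 11.2% for VSNL1. With no filter on intensity, 432 genes had at least 10 times the liver level in brain, and 62 of them were called higher and 1 lower, a share of 14.4% higher against 3.78% of the other genes. For the 227 genes with at least 10 times the liver level in muscle, 18 were called higher (7.93% against 4.07%). Members of both classes were chosen for a low level in liver relative to the other tissue, and near background a fall cannot be read. The split between rises and falls is therefore partly set by the choice and is not read as a result. The summed intensity of 7 neuron markers on the deposited scaling was 239, 245 and 243 in the controls and 601, 352 and 739.6 after heat. In this sum, the probe sets of 6 of the 7 were below the limit for testing. Read from the brightest liver probe set of each gene, 2 of the 7 were tested. SNAP25 was called higher, and the other changed by -0.33 and was not called. Of the 6 below the limit in the sum, STMN2, a neuronal growth protein, read 34.5, 26.3 and 28.8 in the controls and 169, 56.7 and 174.9 after heat. SNAP25 and STMN2 rose most among the 7. GAP43 overlapped between the groups (16.42, 30.23 and 24.49 against 19.38, 27.54 and 26.96). So did NEFL (30.02, 31.3 and 36.37 against 46.05, 28.07 and 39.08). SYT1, NEFM and GAD1 were higher on every heat array than on every control, with all values below 100 and so close to background. Leaving out each array in turn, the calls of RTN1 and VSNL1 held throughout, and calls were lost for EEF1A2 without control 3 (adjusted p up to 0.0520) and SNAP25 without control 2, control 3 or heat 1 (adjusted p up to 0.0710). The part of brain or muscle RNA in these rises was not tested.

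Markers of other liver cells also moved in part. Of 8 stellate cell and fibroblast markers, 3 were called higher (COL3A1, LUM and DCN). Their summed intensity on the deposited scaling was 13796, 11201 and 10721 in the controls and 17307, 19174 and 18907 after heat, without overlap. COL3A1 was the largest single part of that sum on every array. DES, a stellate cell marker, went the other way. It read 126, 137.7 and 134.9 in the controls and 82.2, 105.6 and 104.8 after heat, near background, and was not called. The 8 endothelial markers summed to 4086, 5001 and 5081 against 6715, 9404 and 6925, also without overlap. CDH5 was the largest single part of each sum, VWF was the 1 gene called (higher), and the median of the 8 markers relative to their control means did overlap (89.4%, 99.96% and 105.1% against 135.2%, 182.0% and 103.4%). Extracellular matrix genes, which these cells make, rose in 7 of 31 cases and fell in 1 (median 0.28). Calls covered 25.8% of them, against 14.5% of all genes. The rises numbered 1 to 6 when 1 array was left out, 12 on the scaling as deposited and 3 in the fit over 18 arrays. MMP2, a gelatinase, had 291, 297 and 274 in the controls and 548, 669 and 564 after heat (log2 change 1.00, SE 0.13, adjusted p = 0.00636). COL3A1, a fibrillar collagen, had 4555, 4154 and 3609 in the controls and 6075, 6496 and 6124 after heat (log2 change 0.61, adjusted p = 0.0165), and SERPINH1, the collagen chaperone that is also a heat shock protein, rose by 0.63 (adjusted p = 0.0170). LUM, a proteoglycan, rose by 1.00, while COL1A1 had a change of 0.03 (adjusted p = 0.946). COL18A1, a collagen of basement membranes, was the gene that fell (-0.41). When each array was dropped in turn, the call of MMP2 held throughout, and calls were lost for COL3A1 without control 2, control 3 or heat 1 (adjusted p up to 0.0698), SERPINH1 without control 2 or control 3 (adjusted p up to 0.0733), LUM without control 2, control 3, heat 1, heat 2 or heat 3 (adjusted p up to 0.0991) and COL18A1 whichever array was left out (adjusted p up to 0.141). The 12 muscle markers summed to 1606, 1923 and 1680 against 1330.1, 3160.5 and 4758, with overlap, with TNNC1 called lower, and with their level as a covariate 1878 probe sets were called. The 4 erythrocyte markers summed to 14535, 25769 and 31236 against 18117, 16325 and 18665. Sums for macrophage, lymphocyte, granulocyte, pancreas and adipocyte markers overlapped between the groups with none called, and of 6 cholangiocyte markers EPCAM was called higher. In tissue RNA, more cells of a type and more RNA per cell cannot be told apart, and the part of these cells in the calls was not tested.

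**Figure D4:**
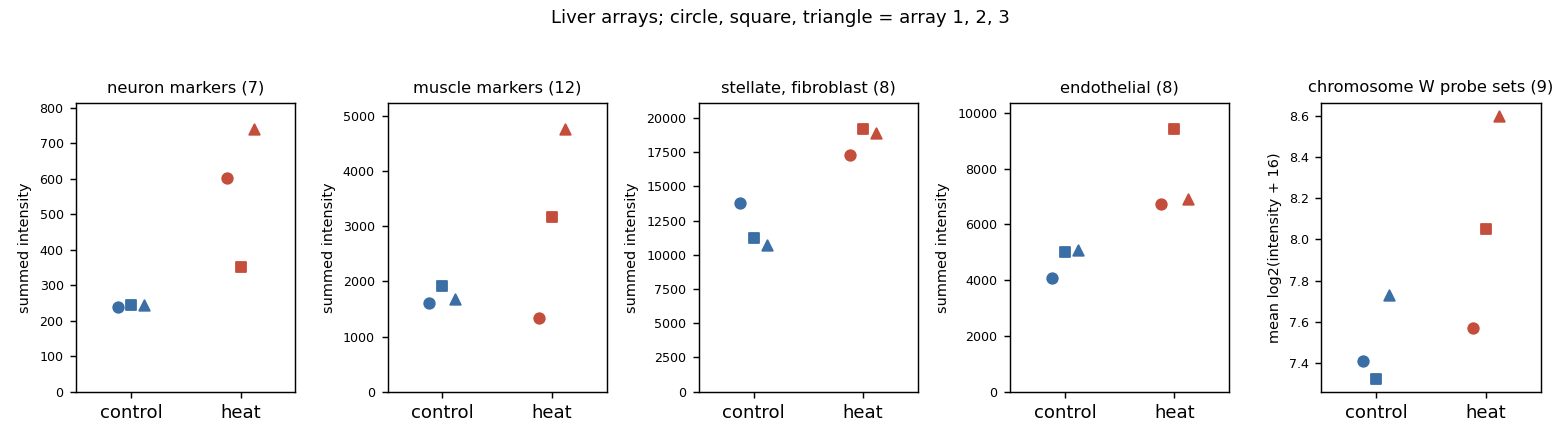
Summed intensity of neuron, muscle, stellate cell and fibroblast, and endothelial markers, and mean log2 level of 9 chromosome W probe sets, with 1 point per liver array. The stellate cell and fibroblast and the endothelial sums are higher on all 3 heat arrays, and the W level is highest on heat 3 (8.60).

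The balance of directions differed between large and small chromosomes. Chromosomes were taken from the RefSeq annotation of assembly GRCg7b by Entrez gene number. Among 4096 genes of chromosomes 1 to 5, the largest of the chicken apart from Z, 414 were called higher and 188 lower (10.1% and 4.59%). Among 4911 genes of chromosomes 6 and above, 237 were higher and 486 lower (4.83% and 9.90%). The median difference between these classes was 0.21, 0.15 and 0.14 log2 on the heat arrays relative to the control mean and 0.01, -0.01 and 0.01 on the controls, so each heat array lay apart from each control. On the scaling as deposited the counts were 596 higher and 125 lower against 377 and 335. The same sign was present in the brain arrays (298 higher and 189 lower against 187 and 437). The medians in muscle were 0.06 and -0.04, with 1 gene called in all. Chromosomes did not all follow their class: chromosomes 6 (29 higher, 23 lower) and 7 (28 higher, 20 lower) had more genes higher than lower, and the median of chromosome 5 was -0.0017. Chromosome 25 had 24 genes lower and 0 higher of 102. On chromosome Z 17 were higher and 22 lower of 424.

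**Figure D5:**
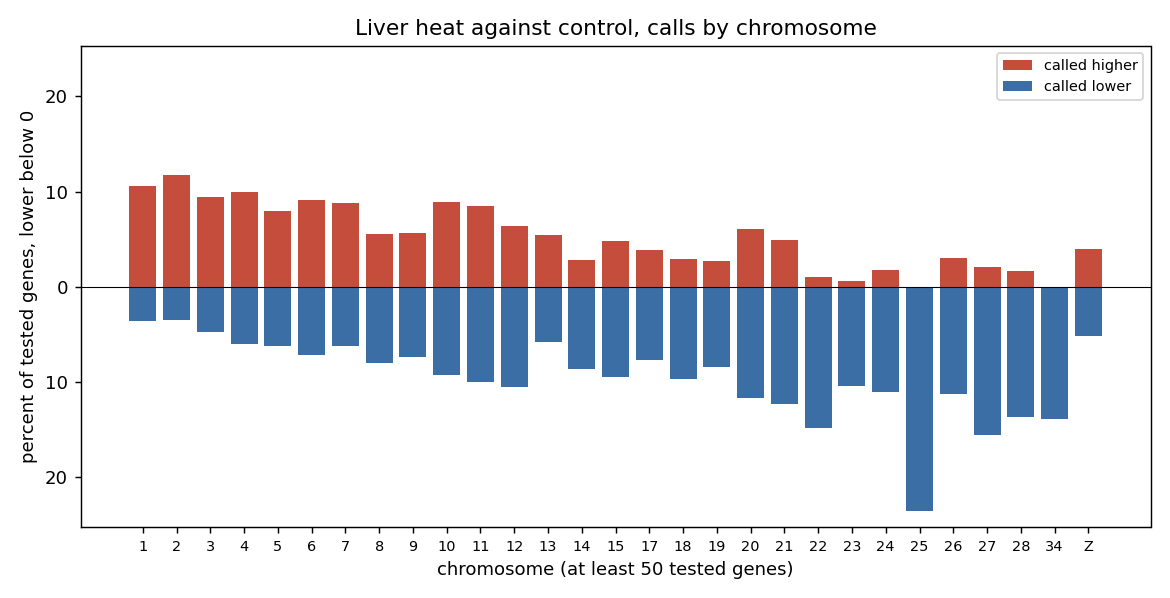
Percentage of tested genes called higher and lower after heat in liver for each chromosome with at least 50 tested genes. Higher calls outnumber lower ones over chromosomes 1 to 5 (414 against 188), and lower calls outnumber higher ones over chromosomes 6 and above (486 against 237). On the scaling as deposited, not drawn, chromosomes 6 and above had 377 higher and 335 lower.

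The heat effect in liver was then set against that in brain and muscle. The fit treated the 18 arrays as independent. The labels do not say whether same-numbered arrays of different tissues come from the same birds, but the chromosome W level ranked the replicates in the same order in all 3 tissues, within controls and within heat. A fit with each condition's replicate number as a block across tissues, added after the values were seen, called 451 differences from brain and 208 from muscle, 331 and 167 of them shared with the fit reported here. The difference from brain was called for 391 of 23128 probe sets (1.69%), with liver above brain for 180 (0.778%) and below it for 211 (0.912%). The difference from muscle was called for 210 of 21692 (0.968%), with liver above and below muscle for 105 each (0.484%). Of the 1388 genes called in liver, the difference from brain was called for 144 and that from muscle for 82. In all of these the liver change was the larger in its own direction. Choosing the genes by their call in liver largely fixed that outcome, so it is not read as a result. Cholesterol synthesis genes were lower in liver than in brain by this test for 7 of 17 and than in muscle for 5. For cell cycle genes the numbers were 9 and 3 of 46, and for pyrimidine and folate genes 5 and 2 of 25. For fatty acid oxidation 4 of 17 genes rose more in liver than in brain and 1 more than in muscle. Among cytosolic chaperones the difference was called for 1 of 23 against brain and 2 against muscle. HSPB9 changed by 2.93 in brain and 0.53 in muscle, with adjusted p of 0.765 and 0.0264 for the differences from liver. Without heat 1 of liver these totals were 172 and 129.

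PPARGC1A changed by -0.07 in brain and 0.24 in muscle, and both differences from liver were called (adjusted p = 0.00993 and 0.0277). BHLHE41 changed by -0.45 and -0.47 in those tissues (adjusted p of the differences 0.00365 and 0.00344). For LDHB the changes were -0.06 and -0.10 (adjusted p of the differences 0.0155 and 0.0117). Each of these genes thus moved more in liver than in either other tissue. Hepatocyte markers stood at 15.6% of the liver control level on brain heat 1 and at 29.4% on muscle heat 3, against at most 1.60% and 5.57% on the other arrays of those tissues. Without brain heat 1 the difference from brain was called for 635 probe sets, and without muscle heat 3 the difference from muscle for 147. Of the genes called higher in liver and tested in both tissues (594), 109 were also called higher in brain, which is 18.4% of the liver calls and 27.4% of the 398 brain calls. Of those called lower (621), 167 were also lower in brain, 26.9% of the liver calls and 29.2% of the 571 brain calls. Among all genes of chromosomes 1 to 5 tested in brain, 7.27% were called higher there and 4.61% lower. For chromosomes 6 and above these shares were 3.89% and 9.09%. Whether the shared calls exceed such shares was not tested. Muscle had 1 gene called higher and none lower, and the genes called higher in liver did not include it.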

How the data were processed

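The authors deposited 1 linear intensity per probe set and array. GCOS 1.4 is named in the submitters' processing notes. How probes were summarised and arrays scaled is not given in the sources used here, and the number of arrays limits the precision. Of 38439 probe sets without the 96 control sets, 27168 carry 1 gene symbol in the platform annotation.

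Liver arrays were quantile normalized and analysed as log2(intensity + 16), because their trimmed means (2% removed at each end) differed by a factor of 1.12. Probe sets below the median (mean intensity 82.1) were left out. Heat was compared with control by limma 3.58.1 in R 4.3.3 (two-sided moderated test, trend on intensity, Benjamini-Hochberg). Differences between tissues were interaction contrasts over 18 arrays. Each gene was read from its brightest liver probe set.

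In simulated liver data, 7.46%, 55.2% and 93.9% of genes changed by 0.5, 1 and 2 on the log2 scale were found, with 1 false call among 105. The data gave 2511 calls, far more than the simulation, so these shares need not hold for the data.

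The comparison and the 43 gene lists (1133 of 1344 symbols matched) were chosen with earlier results of these data known. Named genes were the 20 largest rises and 20 largest falls without overlap, the 4 called genes of each list with the smallest p, and the 4 largest differences from each other tissue in each direction. Further key genes of a list, ALB included, were chosen after their values were seen, and so was every called gene that completes a count of 5 or fewer. The alternatives tried cover scaling, pseudocount, filter, trend, arrays in the fit, replicate block, and covariates added after the values were seen.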

Additional observations from a re-analysis of the deposited data

Results flagged for a closer look

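The results below are the largest differences in the log2 heat effect between liver and another tissue, each tested as an interaction contrast. Liver exceeded brain by 2.14 for EEF1A2, 2.06 for PPARGC1A, 1.97 for CPT1A and 1.93 for CDCA9. The liver controls of EEF1A2 and CPT1A lay near background, so the size of their differences is uncertain. EEF1A2 had a control mean of 12686 in brain and 17401.5 in muscle, and the part of RNA from those tissues in its liver values was not tested. Liver was below brain by a difference of -3.19 for CYP1A1, -2.72 for SQLE and -2.24 for LEAP2. The fitted value for ALB, -4.84 (-3.56 without brain heat 1), is not read as a difference between the tissues, because ALB stood at the top of the normalized scale on 5 of the 6 liver arrays and the value comes from the brain arrays, with a mean intensity of 60.4 in the controls and 5038 after heat. Liver exceeded muscle by 2.43 for SLC25A25, which was not called in liver itself (adjusted p = 0.0543), 2.41 for TET2, 2.17 for EEF1A2 and 2.11 for COQ10B. Each value is from 1 probe set per gene. Within liver, other tested probe sets of SLC25A25 changed by 0.002 and -0.04, neither called. Those of TET2 changed by 0.01 (not called) and 0.53 (called higher). Liver was below muscle by a difference of -3.16 for ASB2, whose mean intensity in muscle was 245.6 in the controls and 2113 after heat, and by -2.51 for CYP1A1, -2.48 for ELF3 and -2.27 for LEAP2. All of these fitted differences from brain or muscle were still called without brain heat 1 or muscle heat 3, the arrays on which hepatocyte transcripts stood highest outside liver. With each condition's replicate number as a block across tissues they were still called too.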

How the results depend on the processing

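Over the alternatives run, none of the 164 genes chosen by the naming rule changed direction. Of their calls, 72 held in all 6 fits that left out 1 liver array, 5 held in none, and 67, 80 and 78 were lost without control 2, control 3 or heat 1. The scaling as deposited lost 16, equal array medians 19, the muscle marker covariate 36 and the chromosome W covariate 144. Leave-one-out totals ranged from 499 to 2383 calls, with 252 to 1356 higher and 238 to 1038 lower. Setting the array medians equal left 778 calls lower (1631 higher). The fit over 18 arrays gave 3809 calls, 1940 of them lower. One probe set per gene gave 1635, 800 of them higher. Requiring a change of at least 2-fold left 351 (193 higher, 158 lower). The chromosome W covariate left 54, 27 in each direction. Within liver, the deviations of same-numbered control and heat arrays correlated at 0.12, 0.37 and -0.09, and those of differently numbered arrays at -0.27 to 0.16. These few values cannot decide whether the replicate number pairs the arrays. The fit with the replicate block gave 3094 calls in liver, 315 for the difference from brain and 165 for that from muscle. Same-numbered arrays of a condition had deviations that correlated above 0 across tissues in 15 of 18 pairs (median 0.167), and differently numbered arrays in 10 of 36 (median -0.08). With a pseudocount of 64 the differences from brain and muscle numbered 598 and 316. Leaving out 1 liver array gave 172 to 352 and 129 to 247, and leaving out brain heat 1 gave 635. For scaling, pseudocount, filter, trend and the covariates the cause of each shift was not tested. The list medians nearest 0 depended on scaling: 10 of 43 changed sign under the scaling as deposited or with array medians set equal, none of them beyond 0.15 in the main values. Signs also changed for 11 with the chromosome W covariate, 10 with the muscle marker covariate and 10 without heat 3.

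Limits: 3 arrays a group found few changes of 0.5 on the log2 scale in the simulation, which had far fewer calls than the data. The call rate rose from 6.56% in the dimmest of 4 equal bins of tested probe sets to 18.4% in the brightest, so absence of a call in dim genes says little. Bird, sex, pooling, feeding and time of day are not given for each array.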
